A study of Mus musculus with 24 samples.

Results

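The question addressed here was whether the difference between the B6 and D2 mouse strains in liver was the same as that in duodenum. It was asked in wild-type mice, whose 12 arrays were chosen by genotype from the 24 arrays of the series and fall into 4 groups of 3: liver of B6 mice, liver of D2 mice, duodenum of B6 mice and duodenum of D2 mice. B6 denotes the C57BL/6 strain and D2 the DBA/2 strain. All mice were males aged 7 weeks that were fasted before they were killed. The wild-type mice carried no engineered allele and were purchased, whereas the *Hfe*-/- mice, which supply the other 12 arrays and are used below only for comparison, were bred in-house. The 12 wild-type arrays are labelled as biological replicates. The labels do not say whether a replicate number stands for 1 mouse in both tissues, and the p-values measure the spread between these samples. The paper states that 3 mice of each strain and genotype were profiled, which implies that both tissues came from the same mice. The main fit treated the 12 arrays as independent, and fits with mouse as a block are given at the end.

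Liver and duodenum are the organs between which systemic iron balance is set. Enterocytes of the duodenum take up iron and pass it to the blood through ferroportin, and hepatocytes secrete hepcidin, the hormone that removes ferroportin from cell membranes. Both organs also metabolize drugs, sterols and dietary lipids, with cytochrome P450 enzymes, UDP-glucuronosyltransferases and carboxylesterases that partly overlap between them. Inbred strains differ at many loci, and a locus can alter the transcript of a gene in every tissue or in 1 tissue, as when a regulatory element is used in that tissue alone.

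Values are MAS5 signals, a brightness per probe set on a linear scale, with every array scaled to a trimmed mean of 100. Median signals were 15.7 to 19.2 on the wild-type liver arrays and 20.02 to 22.7 on the wild-type duodenum arrays. The labelled tissues matched their markers. The summed signal of 8 hepatocyte markers was 90906 to 102433 on liver arrays and 3343 to 4517 on duodenum arrays, and that of 8 enterocyte markers was 22967 to 30339 on duodenum arrays and 1910 to 2452 on liver arrays. On duodenum arrays 12 pancreatic acinar markers summed to 14578 to 70291 in B6 mice and 31819 to 75240 in D2 mice, so that exocrine pancreas RNA was present and uneven. In such bulk tissue, fewer cells of a type and less RNA per cell cannot be told apart. All D2 duodenum arrays were hybridized in a different run from the B6 wild-type duodenum arrays, so that in wild-type duodenum run and strain cannot be told apart. Within the run that held all D2 duodenum arrays, the 3 D2 and 2 B6 arrays of *Hfe*-/- mice gave a strain difference within 1 run, and in liver 1 D2 array shared the run of the 3 B6 arrays. In both comparisons the D2 arrays were on fluidics station 2 and the B6 arrays on station 1. Station and strain therefore cannot be told apart in them.

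For each probe set the D2 minus B6 difference in duodenum was subtracted from that in liver, on the log2 scale. A result of 0 means equal strain differences, a positive one that D2 was relatively higher in liver, and a negative one that D2 was relatively lower in liver. A difference was called at a limma adjusted p of at most 0.01. Of 45037 probe sets 189 (0.42%) were called, and of 18193 genes, each represented by 1 probe set, 129 (0.709%) were called. In 56 genes (0.308% of those tested) the liver difference exceeded the duodenum difference, and in 73 (0.401%) it was the lower one. The median over all genes was 0.01. Within tissues, 624 genes differed between strains in liver (3.43%), 300 of them higher in D2 (1.65%) and 324 higher in B6 (1.78%). In duodenum 328 genes differed (1.8%), 148 higher in D2 (0.813%) and 180 higher in B6 (0.989%). These fractions are the background for all counts below.

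Strain differences called in both tissues numbered 154, which is 24.7% of the liver list and 47.0% of the duodenum list. Of these, 148 had the same direction and 6 the opposite one. A call in 1 tissue alone was not taken as tissue dependence. Of the 470 genes called only in liver, the interaction was called for 75, and of the 174 called only in duodenum it was called for 38. A strain difference was termed confined to a tissue when it was called there, the interaction was called, and the other tissue either gave a 95% interval within 1.5-fold in both directions (measured in both) or had mean signals under 50 in both strains (low in the other tissue). By this rule 35 genes were confined to liver and measured in both tissues, 11 were confined to liver and low in duodenum, 20 were confined to duodenum and measured in both, and 7 were confined to duodenum and low in liver. A further 4 genes differed in the same direction by unequal amounts, 29 were called in liver only and 11 in duodenum only with the other tissue unresolved, and 6 were called in neither tissue.

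**Figure D1:**
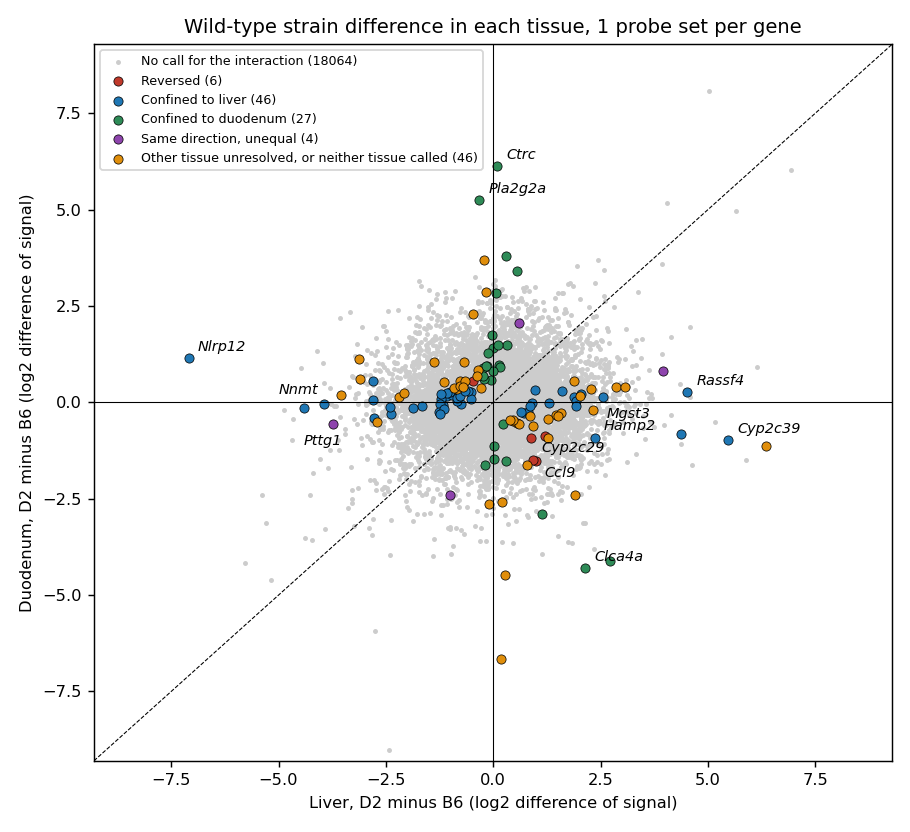
Strain difference of each gene in liver (x axis) and duodenum (y axis), both as the log2 difference of D2 minus B6 mean signals in wild-type mice, with 3 arrays in each group. Grey points had no called interaction, colors give the classes defined in the text, and the dashed line marks equal differences. The 6 reversed genes lie in the upper left and lower right quadrants. The confined genes lie near the 2 axes, except for some with low signal in the other tissue, such as *Clca4a* (2.15 in liver and -4.30 in duodenum).

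The counts depended on how the variance was modeled and on single arrays. Without a mean-variance trend 20 genes were called, and with all 24 arrays and the hybridization run as a fixed term 15 were, 12 of them among the 129. When arrays were left out in turn, the 56 became 32 to 60 (32 without the second and 34 without the first liver D2 array) and the 73 became 39 to 66 (39, 44 and 41 without the first, second and the third liver B6 array, 43 without the first liver D2 array, 44 without the third duodenum B6 array and 48 without the first duodenum D2 array).

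Opposite strain differences in the 2 tissues were found for *Ccl9*, *Cyp2c29*, *Fuca2* and *Arsg*, which were higher in D2 liver and lower in D2 duodenum, and for *Retsat* and *Rarres2*, which were lower in D2 liver and higher in D2 duodenum. The differences were 1.38-fold to 2.87-fold within a tissue, and in each of the 6 genes all 3 arrays of one strain lay above all 3 of the other in both tissues.

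*Ccl9* encodes a chemokine of myeloid cells. Its signals in liver were 1037, 884 and 911 in B6 mice and 1909, 1695 and 2004 in D2 mice, whereas in duodenum they were 140, 177 and 212 in B6 mice and 78.8, 61.2 and 46.1 in D2 mice. D2 mice were thus at the higher level in liver and at the lower level in duodenum, with no overlap. The log2 difference was 0.99 in liver (SE 0.18, adjusted p = 0.0031) and -1.52 in duodenum (SE 0.18, adjusted p = 9.42e-05), which gave an interaction of 2.51 (SE 0.25, adjusted p = 0.00011). A second probe set of the gene gave 1.33 in liver (adjusted p = 0.000299) and -0.73 in duodenum (adjusted p = 0.0407). On the same arrays 11 markers of Kupffer cells and macrophages summed to 4368 to 5849 in B6 liver, 3027 to 4237 in D2 liver, and 1422 to 1800 and 1269 to 1636 in B6 and D2 duodenum, and their part in the *Ccl9* differences was not tested.

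*Cyp2c29* encodes a cytochrome P450 of drug and fatty acid metabolism. Signals of 4628, 4171 and 4553 in B6 liver rose to 8955, 8418 and 7826 in D2 liver, a 1.89-fold difference (adjusted p = 0.000474). In duodenum, signals of 2960, 2812 and 3018 in B6 mice stood against 810, 1311 and 1073 in D2 mice, a 2.80-fold difference in the other direction (adjusted p = 6.14e-06). The mean signal in liver was thus 1.52-fold that in duodenum in B6 mice and 7.89-fold that in duodenum in D2 mice.

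*Fuca2*, a secreted fucosidase, was the only one of the 6 with more signal in duodenum than in liver. It was at 42.9, 38.0 and 46.3 in B6 liver and 91.2, 108 and 95.8 in D2 liver, and at 786, 767 and 862 in B6 duodenum and 412, 425 and 477 in D2 duodenum. The log2 differences were 1.22 (SE 0.12) and -0.88 (SE 0.12), with adjusted p of 1.46e-05 and 0.000413. *Arsg*, a lysosomal sulfatase, had the highest adjusted p for the interaction (0.00215) of the 6. Its signals of 124, 136 and 154 in B6 liver and 255, 265 and 238 in D2 liver were well separated, but those in duodenum were near 50, with 52.2, 48.4 and 52.6 in B6 mice and 22.4, 24.5 and 35.1 in D2 mice. The adjusted p was 0.00789 in liver and 0.00777 in duodenum, and *Arsg* stayed among the reversed genes in 1 of the 12 fits that left out an array, the one without the third duodenum D2 array.

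*Retsat* encodes retinol saturase, an enzyme of vitamin A metabolism. It was at 6635, 7648 and 6617 in B6 liver and 4688, 4421 and 3888 in D2 liver, and at 1401, 1285 and 1413 in B6 duodenum and 1781, 2112 and 2044 in D2 duodenum. The log2 differences were -0.69 in liver (SE 0.10, adjusted p = 0.000416) and 0.53 in duodenum (SE 0.10, adjusted p = 0.00487). The second probe set of the gene also reversed, with -0.999 in liver (adjusted p = 3.9e-05) and 0.71 in duodenum (adjusted p = 0.0011). Second probe sets of *Arsg* and *Rarres2* had the same signs without a call in both tissues, with 0.53 in liver (adjusted p = 0.422) and -1.56 in duodenum (adjusted p = 0.00882) for *Arsg*, and -0.50 (adjusted p = 0.0736) and 0.58 (adjusted p = 0.0564) for *Rarres2*. *Rarres2* encodes chemerin, a chemoattractant and adipokine made in liver. Its signals of 3705, 4322 and 3662 in B6 liver and 2994, 2586 and 2855 in D2 liver gave a difference of -0.47 (SE 0.09, adjusted p = 0.00435), and those of 198, 202 and 192 in B6 duodenum and 299, 292 and 282 in D2 duodenum gave 0.56 (SE 0.09, adjusted p = 0.00145). Its interaction of -1.03 was the smallest of the 6, and the groups did not overlap.

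The interaction was called for all 6 genes whichever array was left out, but the reversal needs a call in each tissue and was less stable. *Cyp2c29* and *Fuca2* were reversed in 12 of 12 such fits, *Ccl9* and *Rarres2* in 8 and *Retsat* in 7, and without the third liver D2 array 3 genes remained. With each tissue fitted on its own 3 of the 6 were reversed, and with at least 2-fold differences required in both tissues none was, the count being 0.

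**Figure D2:**
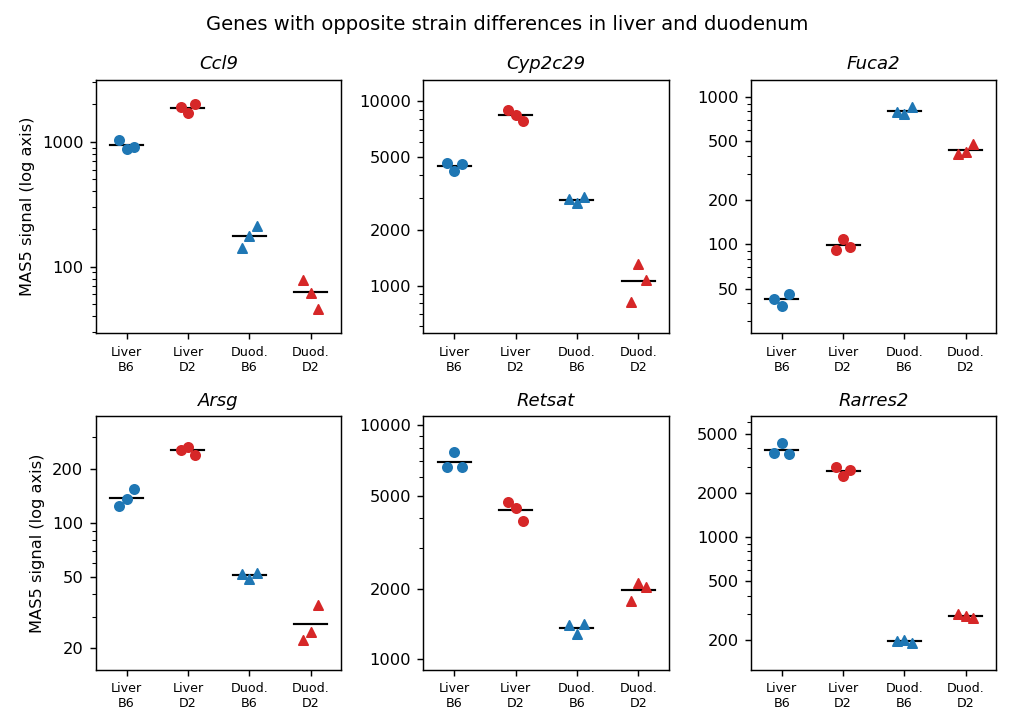
MAS5 signal (log axis) of the 6 genes with opposite strain differences, with 1 point for each of the 3 wild-type arrays of a group and a line at the group mean; circles are liver, triangles duodenum, blue B6 and red D2. Red lies above blue in 1 tissue and below it in the other in every panel, for example with means of 8399.7 against 4450.4 in liver and 1065 against 2929.7 in duodenum for *Cyp2c29*.

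The 35 genes confined to liver and measured in both tissues comprised 13 that were higher in D2 and 22 that were higher in B6 liver, with interactions of 0.61 to 2.87 in size and a median size of 1.09. The 4 named for the largest interaction in each direction had liver differences of 2.31-fold to 6.94-fold beside duodenum differences of 1.02-fold to 1.17-fold.

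Higher in B6 liver were *Hspb1*, *Psen2*, *Fez2* and *Tpm2*. *Hspb1* encodes a small heat shock protein that guards actin and unfolded proteins. Its signals in liver were 336, 487 and 460 in B6 mice and 72.8, 65.5 and 47.1 in D2 mice, a 6.94-fold difference (adjusted p = 8.29e-07), whereas duodenum gave 149, 226 and 165 in B6 mice and 209, 205 and 150 in D2 mice (95% interval of the log2 difference -0.37 to 0.51). *Psen2* encodes presenilin 2, a catalytic subunit of gamma-secretase. It was at 2176, 1994 and 1972 in B6 liver and 383, 408 and 372 in D2 liver, a 5.28-fold difference (adjusted p = 1.45e-08), and at 86.0, 75.6 and 80.0 in B6 duodenum and 85.1, 76.0 and 61.2 in D2 duodenum. The strains overlapped in duodenum for both genes and were far apart in liver. *Fez2* differed by -1.67 in liver (SE 0.16, adjusted p = 1.07e-05) and by -0.08 in duodenum (95% interval -0.42 to 0.25). *Tpm2*, an actin-binding tropomyosin, had a much stronger signal in duodenum, with means of 1274 ± 119 (SD, n = 3) in B6 and 1470.2 ± 96.5 (SD, n = 3) in D2 mice, and differed in liver alone, by -1.21 (SE 0.13, adjusted p = 4.29e-05).

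Higher in D2 liver were *Mgst3*, *Tmem51*, *Mt1* and *Sae1*. *Mgst3* encodes a microsomal glutathione transferase. Liver signals were 124, 113 and 97.0 in B6 mice and 749, 664 and 564 in D2 mice, a 5.90-fold difference (adjusted p = 3.8e-09), while in duodenum the signals were 4104, 4211 and 3534 in B6 mice and 4533, 4204 and 4373 in D2 mice. Duodenum was therefore the tissue of high *Mgst3* signal in both strains, and the strains overlapped there. *Sae1* encodes a subunit of the SUMO-activating enzyme. It stood at 170, 134 and 147 in B6 liver and 599, 624 and 616 in D2 liver (log2 difference 2.04, SE 0.10, adjusted p = 1.62e-08), so that D2 liver but not B6 liver reached the duodenum level of 399, 469 and 438 in B6 and 509, 527 and 484 in D2 mice. For *Sae1* the D2 duodenum arrays also lay above the B6 ones, but by 0.22 (95% interval 0.00 to 0.44, adjusted p = 0.45). *Tmem51* differed by 1.94 in liver (SE 0.14, adjusted p = 8.46e-07) and by -0.09 in duodenum (95% interval -0.39 to 0.22).

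The metallothioneins *Mt1* and *Mt2*, small proteins that bind zinc and copper and are induced by metals, stress and fasting, differed in liver together. Their genes are neighbors on chromosome 8 of the mouse. Metal response elements near these genes are textbook sites of their control. The stretch of 250 bases before each start site in the RefSeq annotation of GRCm38.p6 is shown. The windows depend on the annotated start, and whether they hold the known elements of these genes was not tested. Capitals mark the letters TGCACNC or TGCGCNC, the core of the metal response element, on either strand. *Mt1* is read from chr8:94178839-94179088 and *Mt2* from chr8:94172368-94172617, both on the plus strand.
Mt1: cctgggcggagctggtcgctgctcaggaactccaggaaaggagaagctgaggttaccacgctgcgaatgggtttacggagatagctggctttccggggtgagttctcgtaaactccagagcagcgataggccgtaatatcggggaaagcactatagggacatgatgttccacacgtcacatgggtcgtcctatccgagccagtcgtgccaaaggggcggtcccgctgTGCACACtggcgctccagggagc
Mt2: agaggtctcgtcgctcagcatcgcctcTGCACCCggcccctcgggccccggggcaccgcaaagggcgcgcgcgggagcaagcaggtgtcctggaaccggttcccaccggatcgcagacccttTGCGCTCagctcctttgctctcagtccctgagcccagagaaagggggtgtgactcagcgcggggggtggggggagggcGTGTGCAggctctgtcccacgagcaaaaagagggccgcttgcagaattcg
The window of *Mt1* held 1 match and that of *Mt2* held 3. Of 32851 windows of this length in the annotation, 21.4% held at least 1 match and 1.26% at least 3, and a match is a description of the letters, not a site.

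*Mt1* signals in liver were 1912, 2278 and 2775 in B6 mice and 10050, 8293 and 7836 in D2 mice, a 3.78-fold difference (adjusted p = 7.47e-06). In duodenum they were 4386, 2684 and 3642 in B6 mice and 4136, 3668 and 3013 in D2 mice, a log2 difference of 0.03 (95% interval -0.34 to 0.40). *Mt2* went from 872, 501 and 998 in B6 liver to 4403, 4021 and 3156 in D2 liver, a 5.04-fold difference (adjusted p = 2.16e-05), and was at 2294, 1226 and 1782 in B6 duodenum and 1593, 1578 and 1313 in D2 duodenum. D2 liver was the highest of the 4 groups for both genes and B6 liver the lowest, and the strains overlapped in duodenum. The duodenum interval of *Mt2* (-0.71 to 0.31) was too wide to call it confined to liver. A second probe set of *Mt1*, with a signal of at most 93.3 in any group mean, gave 0.93 in liver (adjusted p = 0.419).

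Among the 11 genes confined to liver and low in duodenum, 7 were higher in B6 and 4 in D2, and the sizes of the interaction were 1.71 to 8.23. In *Napepld*, named here after its values were seen, the signal was low in liver as well, with means of 0.672 in B6 and 12.6 in D2 mice beside 31.1 and 17.6 in duodenum. *Nnmt*, which methylates nicotinamide, had signals of 2053, 2138 and 2868 in B6 liver and 67.2, 80.9 and 239 in D2 liver, a 21.3-fold difference (adjusted p = 1.31e-05). *Cyp2c23*, an epoxygenase of arachidonic acid, was at 3450, 3416 and 2830 in B6 liver and 204, 192 and 239 in D2 liver, a 15.3-fold difference (adjusted p = 3.85e-10). In duodenum every array of either strain lay between 8.97 and 23.7 for *Nnmt* and between 29.8 and 36.4 for *Cyp2c23*. *Nlrp12*, an innate immune receptor of the NLR family, was at 1294, 1409 and 1270 in B6 liver and 7.44, 12.2 and 10.1 in D2 liver, the widest gap of the class (74.2-fold against the array medians, which lay above the D2 signals), and its duodenum signals ranged from 0.323 to 9.14. The interaction of -8.23 (SE 1.32, adjusted p = 0.00566) lost its call when any 1 of 11 arrays was left out. The call stood without the first duodenum D2 array. *Tedc2* differed by -2.80 (SE 0.31, adjusted p = 4.46e-05) in liver.

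Higher in D2 liver in this class were *Rassf4*, *Cyp2c39* and *Hamp2*. *Rassf4*, a Ras association domain protein, had liver signals of 20.5, 36.5 and 15.5 in B6 mice and 551, 561 and 453 in D2 mice, a 23-fold difference (adjusted p = 1.86e-07), and 20.1 to 37.8 on the duodenum arrays of both strains. *Hamp2* is the second of the 2 mouse hepcidin genes. It rose from 3307, 2393 and 2143 in B6 liver to 13530, 13280 and 12980 in D2 liver, a 5.16-fold difference (adjusted p = 3.04e-05), and was at 7.32 to 28.7 in duodenum, where all B6 arrays were above all D2 arrays (log2 difference -0.92, adjusted p = 0.0716). *Cyp2c39*, a P450 of the same subfamily as *Cyp2c29*, was at 23.8, 40.4 and 27.4 in B6 liver and 1553, 1453 and 1034 in D2 liver (44.6-fold, adjusted p = 0.000141). Its interaction of 6.45 was not called without the first or the third liver B6 array, the first or second liver D2 array or the second duodenum B6 array.

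**Figure D3:**
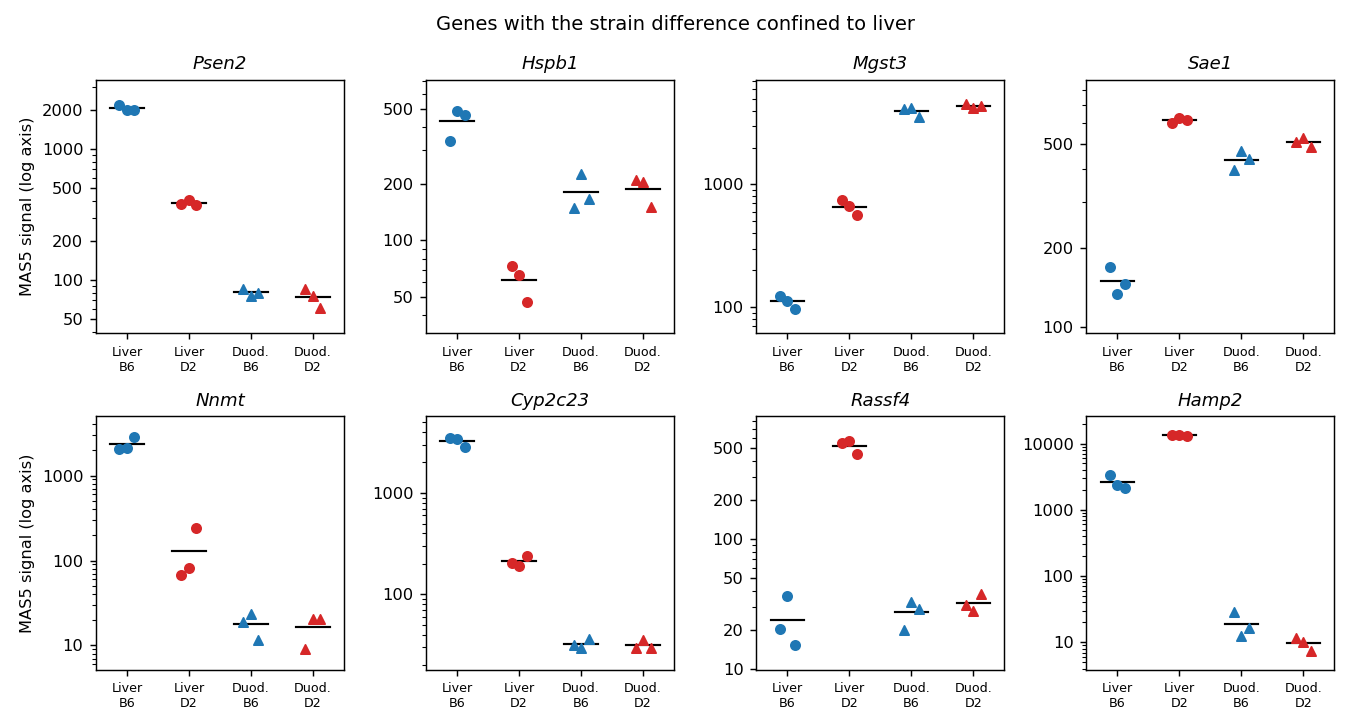
MAS5 signal (log axis) of 8 genes whose strain difference was confined to liver, with 1 point for each of the 3 wild-type arrays of a group and a line at the group mean; circles are liver, triangles duodenum, blue B6 and red D2. Upper row, genes measured in both tissues, lower row, genes low in duodenum; blue and red circles are apart in all panels (5.28-fold for *Psen2*), whereas the triangles overlap for *Psen2*, *Hspb1*, *Mgst3*, *Nnmt*, *Cyp2c23* and *Rassf4* and are apart by less for *Sae1* and *Hamp2*.

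Of the 20 genes confined to duodenum and measured in both tissues, 15 were higher in D2 and 5 in B6, with interactions of 0.62 to 2.78 in size. *Sqor*, *Mal2* and *Akr7a5*, all lower in D2 duodenum, and *Cd36*, higher there, had signals over 100 in both tissues.

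*Sqor* encodes the mitochondrial enzyme that oxidizes hydrogen sulfide, a gas made by gut bacteria. Its duodenum signals were 779, 804 and 834 in B6 mice and 255, 324 and 274 in D2 mice, a 2.85-fold difference (adjusted p = 1.82e-07). In liver they were 1284, 1318 and 1244 in B6 mice and 1628, 1458 and 1636 in D2 mice, so that D2 was the higher strain there, by 0.29 (95% interval 0.09 to 0.49, adjusted p = 0.094). *Akr7a5*, an aldehyde reductase, was at 805, 751 and 882 in B6 duodenum and 368, 388 and 350 in D2 duodenum, a 2.20-fold difference (adjusted p = 1.14e-06), against 2322, 2172 and 2135 in B6 liver and 2296, 2121 and 2316 in D2 liver. The liver strains overlapped for *Akr7a5* and did not for *Sqor*. *Mal2*, which acts in transport across polarized epithelial cells, was at 688, 664 and 944 in B6 duodenum and 219, 243 and 270 in D2 duodenum (3.11-fold, adjusted p = 2.81e-05) and overlapped between strains in liver. The interaction was called for *Sqor* and *Akr7a5* with each array left out, and for *Mal2* in 4 of 12 such fits, those without the third liver D2 array, the first or second duodenum B6 array or the third duodenum D2 array.

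*Cd36* encodes a membrane transporter of fatty acids that takes part in fat absorption. It was at 258, 150 and 146 in B6 duodenum and 625, 459 and 753 in D2 duodenum, a 3.37-fold difference (adjusted p = 9.9e-05), and at 254, 233 and 240 in B6 liver and 269, 230 and 216 in D2 liver. The interaction of -1.78 (SE 0.29, adjusted p = 0.00601) kept its call in 2 of 12 fits that left out an array, those without the first duodenum B6 and the second duodenum D2 array. In *Hfe*-/- mice within 1 hybridization run D2 exceeded B6 in duodenum by 1.69. *Fgf1*, a growth factor, differed by 1.28 in duodenum (SE 0.16, adjusted p = 0.000188) and by -0.13 in liver (95% interval -0.46 to 0.21), with its interaction called in 3 of 12 such fits, those without the first duodenum B6 array and without the second or the third duodenum D2 array.

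Some genes of this class are chiefly liver transcripts with little signal in duodenum, and 17 of the class had a mean of at least 50 in a strain there. *Serpina1b*, an alpha-1-antitrypsin, was at 11880 to 14300 on all liver arrays, and at 9.44, 6.73 and 3.96 in B6 duodenum and 39.8, 50.2 and 46.1 in D2 duodenum, a log2 difference of 2.84 (SE 0.22, adjusted p = 1.57e-06). Its liver signals were near those of the hepatocyte marker *Alb* (means of 13373 in B6 and 13301 in D2 liver), and *Apoa2* was higher (16815 and 17225). Whether signals this bright still rise with the amount of RNA was not tested. *Ces1c*, a carboxylesterase secreted by liver, was at 9273 to 10570 in liver, at 8.47, 13.8 and 9.16 in B6 duodenum and at 26.4, 31.7 and 23.4 in D2 duodenum (difference 1.40, adjusted p = 7.53e-05). *Aqp9*, a glycerol channel of hepatocytes, went the other way, with 19.8, 15.8 and 14.9 in B6 and 6.33, 7.55 and 4.61 in D2 duodenum, all below the array medians. The deposited table holds no detection calls, so these *Aqp9* signals are not shown to be above background, and their difference is one between dim signals. A second probe set of *Aqp9* had the other sign without a call, with 0.87 in duodenum (adjusted p = 0.771) and an interaction of -0.91 (adjusted p = 0.801). In B6 duodenum the means of *Serpina1b* and *Ces1c* were also below the array medians, and against those medians in place of the lower signals, a comparison chosen after seeing the data, the D2 excess was 2.09-fold and 1.24-fold. On duodenum arrays the mean log2 signal of the 8 hepatocyte markers was 4.16 to 4.42 in B6 and 3.41 to 4.73 in D2 mice, and *Alb*, the gene of albumin, had mean signals of 9.10 and 12.02, *Ahsg* 1.24 and 2.96 and *Fgb* 0.75 and 0.94 in B6 and D2 mice. With the mean log2 signal of these markers on the duodenum arrays as a covariate, an alternative chosen after seeing the data, 99 genes were called, 95 of them among the 129, and the interaction was -2.87 for *Serpina1b* (adjusted p = 0.000262) and -1.45 for *Ces1c* (adjusted p = 0.00778). This mean mixes the low signals of *Alb*, *Ahsg* and *Fgb* with *Cps1*, at 3143 in B6 and 3658 in D2 duodenum. It cannot measure how much liver RNA the duodenum arrays held, and the part of such RNA was not tested. The interaction was called for *Serpina1b* with each array left out and for *Aqp9* and *Ces1c* in 6 and 3 of 12 such fits, and for neither of the latter without any of the 6 liver arrays.

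The 7 genes confined to duodenum and low in liver included 4 higher in D2 and 3 higher in B6, with interactions of 2.87 to 6.84 in size. *Pla2g2a* encodes a secreted phospholipase of Paneth cells that kills bacteria. Its duodenum signals were 64.3, 77.3 and 87.9 in B6 mice and 4915, 2435 and 1993 in D2 mice, a 37.9-fold difference (adjusted p = 1.51e-07), and all liver arrays were between 6.96 and 15.2. Of 14 genes of Paneth cells and antimicrobial defense that were measured, *Pla2g2a* was the only one with a called interaction. *Ap1s3*, a subunit of a clathrin adaptor, was at 46.3, 53.0 and 72.8 in B6 and 548, 548 and 731 in D2 duodenum (10.7-fold, adjusted p = 4.08e-07) and at 13.3 to 27.9 in liver. Both genes kept their interaction call whichever array was left out.

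*Tmem252* and *Clca4a* were lower in D2 duodenum. *Tmem252* was at 166, 218 and 162 in B6 duodenum and 23.9, 23.7 and 24.7 in D2 duodenum (7.49-fold, adjusted p = 0.000262), and its interaction was not called without the second duodenum B6 array. *Clca4a*, of a family of secreted chloride channel regulators, was at 974, 1012 and 719 in B6 and 33.6, 44.6 and 62.3 in D2 duodenum (19.6-fold, adjusted p = 0.00539). Its liver signals were 0.543 to 9.91, with a log2 difference of 2.15 that was not called (adjusted p = 0.153) but enters the interaction. The interaction of 6.45 (SE 1.11, adjusted p = 0.00933) was called in 1 of 12 fits that left out an array, the one without the second liver B6 array.

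*Ctrc* encodes chymotrypsin C, a digestive enzyme of the exocrine pancreas. Duodenum signals were 146, 78.1 and 15.7 in B6 mice and 4325, 2318 and 6136 in D2 mice, a 70.0-fold difference (adjusted p = 3.21e-05). On the same arrays the 12 acinar markers summed to 70291, 57810 and 14578 in B6 and 53689, 31819 and 75240 in D2 mice. Within each strain *Ctrc* followed the order of the acinar sums, lowest on the array with the lowest sum and highest on the one with the highest. The first 2 B6 arrays had acinar sums within the D2 range, and their *Ctrc* signals lay below all D2 arrays. In *Hfe*-/- mice *Ctrc* was at 87.4, 165 and 535 in B6 duodenum, with acinar sums of 55274, 74930 and 113315, and at 8673, 55.2 and 154 in D2 duodenum, with acinar sums of 111641, 2466 and 3453. With the mean log2 signal of the acinar markers as a covariate, also chosen after seeing the data, the interaction of *Ctrc* was -5.56 (adjusted p = 6.13e-05). Without the covariate it was -6.04 (adjusted p = 0.00343) and was not called without the first or the third liver B6 array, the first liver D2 array or the first or the third duodenum D2 array. How far acinar content accounts for the *Ctrc* difference was not tested. *Ubd*, an interferon-inducible ubiquitin-like protein, was at 17.4, 34.0 and 18.6 in B6 and 388, 139 and 544 in D2 duodenum (13.9-fold, adjusted p = 6.36e-05), and its interaction was called in 2 of 12 fits that left out an array, those without the second duodenum B6 or the second duodenum D2 array. The summed signal of 12 T and natural killer cell markers was 3361 to 4165 in B6 and 3301 to 5966 in D2 duodenum, and the part of immune cells in the *Ubd* difference was not tested.

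**Figure D4:**
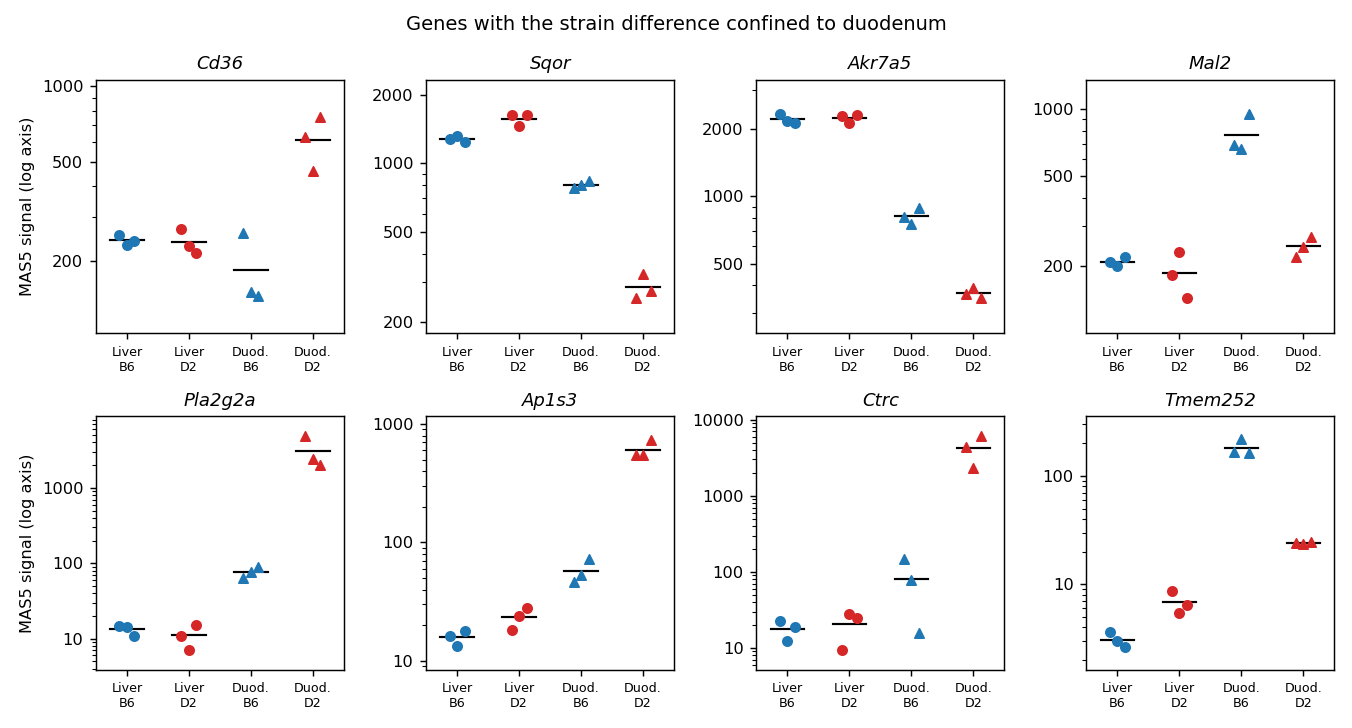
MAS5 signal (log axis) of 8 genes whose strain difference was confined to duodenum, with 1 point for each of the 3 wild-type arrays of a group and a line at the group mean; circles are liver, triangles duodenum, blue B6 and red D2. Upper row, genes measured in both tissues, lower row, genes low in liver; blue and red triangles are apart in all panels (37.9-fold for *Pla2g2a*), and circles are apart by less for *Sqor*, *Ap1s3* and *Tmem252* and overlap in the other 5 panels.

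The 4 genes with the same direction in both tissues differed in amount. *Pttg1*, which encodes securin, a regulator of chromosome separation, was at 2470, 2508 and 2122 in B6 liver and 184, 184 and 165 in D2 liver, and at 985, 999 and 940 in B6 duodenum and 689, 638 and 663 in D2 duodenum. The B6 excess was thus 13.3-fold in liver and 1.47-fold in duodenum, and its interaction of -3.18 (SE 0.12, adjusted p = 6.83e-09) had the lowest p of the 129 genes. Of the other probe sets of *Pttg1*, 1 gave an interaction of -3.41 (adjusted p = 7.84e-08) with 0.48 in duodenum (adjusted p = 0.0529), so that the small duodenum difference was not in the same direction on every probe set. *Slc19a2*, a thiamine transporter, was lower in D2 by 2.01-fold in liver and 5.33-fold in duodenum. *Prelid2* was higher in D2 by 15.5-fold in liver and 1.77-fold in duodenum, and *Scpep1*, a serine carboxypeptidase, by 1.53-fold and 4.15-fold. The interaction of all 4 was called whichever array was left out, but the class also needs a call in each tissue. *Prelid2* (adjusted p = 0.00997 in duodenum) stayed in it in 1 of 12 such fits and *Scpep1* (adjusted p = 0.00797 in liver) in 2 of 12. The B6 liver mean of *Prelid2* (15.4) was at the level of the array medians, and against those medians the liver difference was 13.3-fold.

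Genes of drug, lipid, iron and gut functions were examined in 22 lists that held 661 genes, of which 565 were measured. Calls for the interaction were few in each list, and a list is described by its count and median only.

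In cytochrome P450 family 2, 27 members were measured, of which 3 (*Cyp2c29*, *Cyp2c39* and *Cyp2c55*) had a called interaction with D2 relatively higher in liver, 1 (*Cyp2c23*) had one in the other direction and 23 did not pass. The list median was 0.47, beside 0.01 over all genes. *Cyp2c55* was at 29.7, 29.0 and 40.2 in B6 liver and 94.5, 107 and 89.4 in D2 liver (2.96-fold, adjusted p = 8.24e-05) and overlapped in duodenum at 1496 to 2729. All 4 belong to the Cyp2c subfamily, whose members are similar in sequence, and how far their probes tell them apart was not tested. By limma no interaction was called among the 17 measured genes of P450 families 1, 3 and 4. Of these 17, 6 had an unadjusted p under 0.05, a larger share than the 13.3% of all genes.

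UDP-glucuronosyltransferases conjugate steroids, bilirubin and drugs. Of 18 measured members of these and of the sulfotransferases, 3 had a called interaction, all with D2 relatively lower in liver. *Ugt2b38* was at 792, 650 and 421 in B6 liver and 82.8, 75.7 and 51.2 in D2 liver (8.77-fold, adjusted p = 0.000143). In duodenum it was at 403, 1427 and 1458 in B6 and 1569, 2373 and 2366 in D2 mice, so that D2 was the higher strain there without passing the test (difference 1.13, adjusted p = 0.2). *Ugt2b36* and *Ugt2b5* were higher in D2 duodenum, by 1.77-fold (adjusted p = 3.68e-05) and 1.94-fold (adjusted p = 0.000557), and differed by -0.01 and -0.16 in liver. The interaction call was lost for *Ugt2b36* without the first or second liver B6 or the second liver D2 array, and for *Ugt2b5* it was kept in 3 of 12 fits that left out an array, those without the first or second duodenum B6 or the first duodenum D2 array.

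Of 14 measured carboxylesterases and flavin mono-oxygenases, 2 had a called interaction (*Ces1c*, described above, and *Aadac*), and of 25 dehydrogenases and aldo-keto reductases 1 did (*Adh5*). *Adh5*, which oxidizes formaldehyde bound to glutathione, was at 1117, 1013 and 1045 in B6 and 1733, 1438 and 1645 in D2 duodenum (1.51-fold, adjusted p = 0.000519), with a liver difference of -0.22 (adjusted p = 0.181). It lost its interaction call without the second liver D2 array. *Aadac*, an arylacetamide deacetylase, was 1.49-fold higher in D2 duodenum (adjusted p = 0.000182), with signals of 2289 to 2471 in D2 and 1550 to 1635 in B6 mice, and kept its interaction call in 1 of 12 fits, the one without the third duodenum D2 array.

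*Acadl*, a dehydrogenase of mitochondrial fatty acid oxidation, was at 1335, 1502 and 1520 in B6 duodenum and 3210, 2620 and 2742 in D2 duodenum (1.96-fold, adjusted p = 1.15e-05) and differed by 0.14 in liver (95% interval -0.05 to 0.33). Its interaction was called in 6 of 12 fits that left out an array, and was lost without the second or the third liver B6 array, any liver D2 array or the first duodenum B6 array. It was the only one of 29 measured genes of fatty acid oxidation with a called interaction, and among 32 genes of bile acid synthesis and transport *Cyp7b1* and *Nr1h4* were called. *Cyp7b1*, the oxysterol hydroxylase of the acidic pathway of bile acid synthesis, was at 4394, 3680 and 3938 in B6 liver and 622, 611 and 1184 in D2 liver (5.21-fold, adjusted p = 5.34e-06) and at 17.2 to 26.6 in duodenum. It lost its interaction call without the first liver B6 array. *Nr1h4*, the bile acid receptor FXR, was called for the interaction (0.93, SE 0.15, adjusted p = 0.00693) but in neither tissue, with 716, 806 and 639 in B6 and 1038, 1072 and 861 in D2 liver, and 214, 220 and 224 in B6 and 149, 162 and 163 in D2 duodenum. The *Nr1h4* call was kept only without the second liver B6 or the third liver D2 array.

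Of 49 measured genes of iron and heme handling, 3 had a called interaction, all with D2 relatively higher in liver: *Hamp2* (described above), *Slc40a1* and *Ireb2*. *Slc40a1* encodes ferroportin, the iron exporter on which hepcidin acts. It was at 1199, 1238 and 959 in B6 liver and 2065, 2297 and 1796 in D2 liver (1.82-fold, adjusted p = 0.000133). In duodenum the order was reversed without a call, with 4369, 4681 and 4518 in B6 and 3527, 3371 and 3679 in D2 mice (difference -0.36, 95% interval -0.59 to -0.13, adjusted p = 0.106), and the interaction was 1.22 (SE 0.15, adjusted p = 0.000829). A second probe set of *Slc40a1* gave 0.77 in liver (adjusted p = 0.000258) but 0.08 in duodenum (adjusted p = 0.912). Its interaction of 0.69 was not called (adjusted p = 0.0304). In *Hfe*-/- mice the interaction of the first probe set was 0.69 (adjusted p = 0.0986). D2 mice thus had more hepcidin 2 and more ferroportin transcript than B6 mice in liver. The paper reports the other hepcidin transcript, *Hamp1*, as lower in D2 than in B6 wild-type liver. The paper lists ferroportin binding for the product of *Hamp1* and leaves the activity of the *Hamp2* product open. No value of *Hamp1* is given here, so the *Hamp2* difference does not stand for hepcidin as a whole. *Ireb2*, which encodes an iron regulatory protein that binds transcripts of iron genes, was at 879, 917 and 892 in B6 duodenum and 570, 640 and 619 in D2 duodenum (1.47-fold, adjusted p = 0.000798), and at 443, 445 and 445 in B6 liver and 530, 544 and 490 in D2 liver. Its interaction was not called without the first or second liver D2 array or the second duodenum B6 array. The median of the iron list was 0.03.

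Among 34 measured brush border enzymes and transporters, *Mme* and *Clca4a* (described above) had a called interaction. *Mme*, the peptidase neprilysin, was at 204, 185 and 136 in B6 liver and 8.74, 15.5 and 23.6 in D2 liver (adjusted p = 1.34e-06), and at 1461 to 2242 in B6 and 1774 to 2339 in D2 duodenum, so that the difference lay in the tissue with the lower signal. The D2 liver mean (15.96) was at the level of the array medians, and against those medians the B6 excess was 8.98-fold. Of 23 immediate early genes, *Junb* and *Btg2*, both induced within minutes by growth factors and stress, were lower in D2 liver (1.59-fold, adjusted p = 0.00631, and 1.79-fold, adjusted p = 0.00134). *Junb* was at 194, 230 and 213 in B6 and 330, 311 and 294 in D2 duodenum (adjusted p = 0.0311), and each of these 2 genes kept its interaction call in 4 of 12 fits that left out an array. Each lost it without the third liver B6 array, the first or second liver D2 array, the first or the third duodenum B6 array or the first duodenum D2 array, *Junb* also without the second liver B6 or the third liver D2 array, and *Btg2* also without the first liver B6 or the third duodenum D2 array.

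*Crp*, the C-reactive protein of the acute phase, was the only one of 30 measured acute phase and complement genes with a called interaction. It was at 21.5, 6.74 and 14.7 in B6 and 58.9, 110 and 126 in D2 duodenum (adjusted p = 8.69e-05; 4.31-fold against the array medians, which lay above the B6 mean), beside 3189 to 4140 on all liver arrays, and lost its interaction call without any of the 6 liver arrays or without the third duodenum D2 array. *Hsd3b2*, a steroid dehydrogenase, was at 24.7, 28.3 and 13.3 in B6 and 0.756, 2.63 and 0.427 in D2 duodenum and at 124 to 251 in liver. The duodenum means of both strains were below the highest array median and give no fold, and its interaction was kept in 3 of 12 such fits, those without the third duodenum B6 array and the second or the third duodenum D2 array. *Hsd3b2*, *Cyp7b1* and *Ugt2b38* were the 3 called genes among 21 measured growth hormone dependent and sex-biased liver genes.

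In the interferon-stimulated and Ifi200 list 11 of 39 measured genes were higher in D2 liver and 3 in D2 duodenum, with medians of 0.84 and 0.58 beside 0.02 and 0.01 over all genes. No interaction was called there by limma, and 5 of the 39 had an unadjusted p under 0.05, beside 13.3% of all genes. Nor was an interaction called for 24 measured MHC genes (10 with an unadjusted p under 0.05), 32 genes of cholesterol and fatty acid synthesis (7), 19 clock genes (4) and 32 genes of glucose and amino acid metabolism (15). In each of these lists the share under 0.05 was above the 13.3% of all genes. Each of the lists of glutathione transferases (*Mgst3*, of 21 measured), apolipoproteins and lipid transport (*Cd36*, of 31) and duodenal proliferation (*Pttg1*, of 31) held 1 gene with a called interaction, and *Mt1* and *Mt2* were the 2 of 18 in the list of metallothioneins, zinc and copper. In the 12 lists of cell type markers no gene had a called interaction, the unadjusted p being under 0.05 for 6 of 12 pancreatic acinar, 4 of 8 hepatocyte and 2 of 11 macrophage markers, beside 13.3% of all genes.

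Other probe sets were available for 58 of the 129 genes. Of these 87 probe sets, 81 had an interaction of the same sign as the one that represents the gene, 23 were called with that sign and 0 with the opposite one, the test being limma at an adjusted p of 0.01. Probe sets marked by the manufacturer as sharing probes with related transcripts represent *Mt1*, *Cyp2c23*, *Arsg*, *Rarres2* and *Pttg1* (the suffix s) and *Hamp2*, *Serpina1b* and *Akr7a5* (the suffix x), so that signal from a related gene may enter these values. A sequence difference between the strains under a probe could change its signal without a change in transcript. Whether any probe set named here covers such a difference was not tested.

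The same contrast in the 12 arrays of *Hfe*-/- mice shares no array with the one above. In those mice 89 genes were called (0.489%). Of the 129 genes called in wild-type mice, 121 (93.8%) had the same sign in *Hfe*-/- mice, beside 56.0% of all genes, and 39 were called there in the same direction. The same sign held for all 6 reversed genes, for 32 of 35 confined to liver and measured in both, 9 of 11 confined to liver and low in duodenum, 20 of 20 confined to duodenum and measured in both, and 6 of 7 confined to duodenum and low in liver.

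*Ccl9* (3.11), *Fuca2* (2.14) and *Retsat* (-2.26) were called for the interaction in *Hfe*-/- mice, with adjusted p of 9.32e-07, 0.000302 and 0.000162. *Ccl9* and *Retsat* were again called in both tissues with opposite directions. *Cyp2c29* had an interaction of 5.64 (SE 0.95, adjusted p = 0.0112) with a liver difference of 0.38, the duodenum signals being 958, 3263 and 4736 in B6 and 268, 29.6 and 32.9 in D2 mice. The 2 lowest of these came from the arrays with acinar sums of 2466 and 3453. *Arsg* differed in liver by 1.43 but in duodenum by 0.11, and *Rarres2* gave -0.09 and 0.24.

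Of the genes confined to liver, *Psen2* (-1.94), *Mgst3* (2.16), *Sae1* (2.13), *Tmem51* (1.98), *Nnmt* (-4.12), *Cyp2c23* (-3.39), *Rassf4* (4.66) and *Nlrp12* (-8.97) were called for the interaction in *Hfe*-/- mice as well, with adjusted p from 7.84e-06 to 0.00119. In all, 7 of the 35 measured in both tissues and 4 of the 11 low in duodenum were called there in the same direction. Other named genes were not called, with *Hspb1* at -1.09 (adjusted p = 0.169), *Fez2* at -1.28 (adjusted p = 0.013), *Tpm2* at -1.64 (adjusted p = 0.443), *Tedc2* at -2.27 (adjusted p = 0.12) and *Cyp2c39* at 2.46 (adjusted p = 0.217). *Ugt2b38* gave -1.52 (adjusted p = 0.271), with a liver difference of -0.36 beside -3.13 in wild-type mice. *Hamp2* gave 4.27 (adjusted p = 0.0893), of which 0.45 came from liver, where B6 arrays were at 2994, 4276 and 3674 and D2 arrays at 4048, 6750 and 4367. The metallothioneins gave 0.72 for *Mt1* (adjusted p = 0.464) and 0.13 for *Mt2* (adjusted p = 0.945). *Mt1* was at 5321, 3152 and 2092 in B6 and 7970, 7704 and 8017 in D2 liver of *Hfe*-/- mice, and at 3125, 2417 and 3540 in B6 and 5003, 3852 and 4354 in D2 duodenum, so that D2 exceeded B6 in both tissues there. *Cyp7b1*, 5.21-fold higher in B6 liver of wild-type mice, was at 5160, 1382 and 4526 in B6 and 2653, 4974 and 5568 in D2 liver of *Hfe*-/- mice and overlapped. Whether the knockout effect itself differed between these groups was not tested for these genes.

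Of the genes confined to duodenum, 6 of the 20 measured in both tissues and 1 of the 7 low in liver were called for the interaction in *Hfe*-/- mice in the same direction. The 3 named ones were *Sqor* (1.40, adjusted p = 0.00142), *Adh5* (-0.89, adjusted p = 0.00217) and *Ap1s3* (-3.03, adjusted p = 0.0049). The strain difference in *Hfe*-/- duodenum within a single hybridization run is given next, beside the wild-type one. It had the same sign and a smaller size for *Cd36* (1.69 beside 1.75), *Pla2g2a* (3.20 beside 5.25), *Mal2* (-0.98 beside -1.64) and *Akr7a5* (-0.75 beside -1.14). The same held for *Clca4a* (-3.47 beside -4.30), *Tmem252* (-1.47 beside -2.90) and *Sqor* (-1.14 beside -1.51), whereas *Ap1s3* was larger (3.91 beside 3.42). It was also smaller for *Aqp9* (-0.45 beside -1.47) and for *Ireb2* (-0.09 beside -0.56), whose interaction in *Hfe*-/- mice was 0.21 (adjusted p = 0.8). It was 0.49 for *Ctrc* and -1.50 for *Ubd*, whose signals in *Hfe*-/- duodenum were 42.3, 392.5 and 48.9 in B6 and 56.0, 45.8 and 46.1 in D2 mice. In liver, the run that held the 3 B6 arrays also held 1 D2 array. That D2 array differed from the B6 arrays by 1.02 for *Ccl9*, 2.76 for *Mgst3*, -2.42 for *Psen2*, 2.40 for *Hamp2* and 2.13 for *Mt1*. The differences of all liver arrays were 0.99, 2.56, -2.40, 2.37 and 1.92. The values were further apart for *Nnmt* (-5.11 beside -4.41) and *Mme* (-4.31 beside -3.55). These arrays are also part of the main liver contrast, so that the 2 sets of values are not independent and are partly alike by construction.

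**Figure D5:**
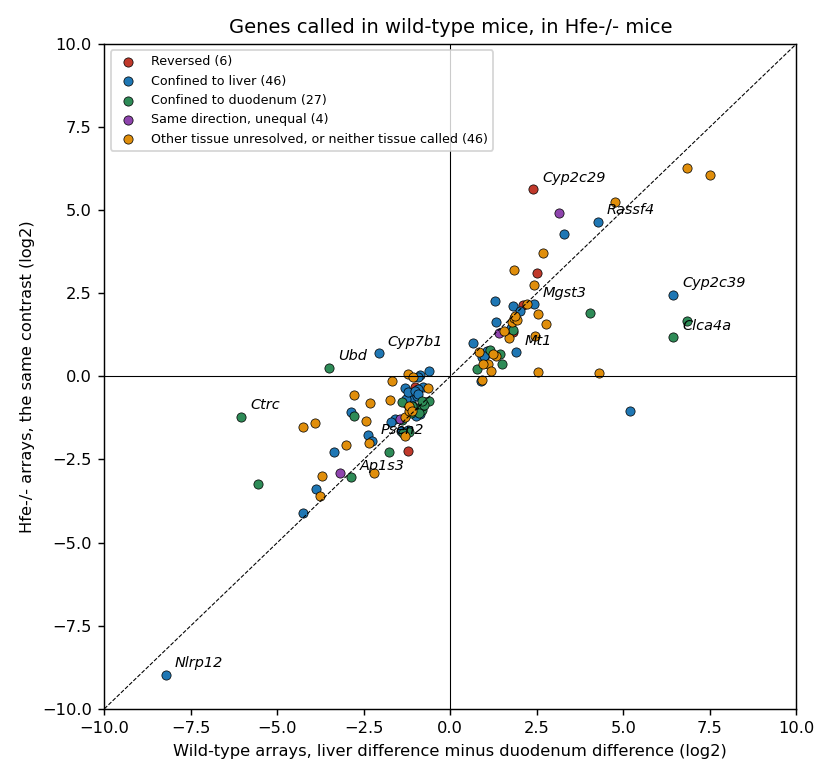
Interaction (liver strain difference minus duodenum strain difference, log2) of the 129 genes called in wild-type mice, on the x axis, and of the same genes on the 12 arrays of *Hfe*-/- mice, on the y axis, colored by class. Of the points, 121 lie in the lower left or upper right quadrant, and *Ubd* (-3.49 against 0.26) and *Cyp7b1* (-2.08 against 0.70) are among those outside; the dashed line marks equal values.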

How the data were processed

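RNA of 24 liver and duodenum samples was hybridized to Affymetrix Mouse 430 2.0 arrays. The authors deposited intensity values (MAS5 signals) on a linear scale, scaled so that the trimmed mean (2% from each end) of every array is 100. The MAS5 version is not given in the sources used here. Scan parameter files gave hybridization run and fluidics station. Of 45101 probe sets, 64 controls were left out and 45037 were tested, of which 34945 had 1 gene symbol, 932 several and 9160 none. For each of 18193 genes the probe set brightest on average (log2) over the wild-type arrays was taken.

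Signals were log2 transformed here. The 12 wild-type arrays were fitted with limma 3.58.1 (R 4.3.3), with 1 mean per group and a mean-variance trend, and p-values were adjusted by Benjamini-Hochberg over all features of a comparison. The study's test on probe-level S-scores needs probe-level data, which were not used here. The fit was tested on simulated data, in which 200 of 45037 probe sets were changed in D2 liver. It found 24 at 2-fold and 157 at 4-fold and called 0 others. For arrays the number of arrays limits the precision, and an exact permutation test of 3 against 3 cannot go below p = 0.1.

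Named genes had a called interaction, signals averaging 100 or more in the group where they were highest, and no overlap of strains where a difference was called. They were up to 6 reversed genes per direction, the 4 largest interactions per direction of each confined class and the 3 largest per direction of the unequal class. To these were added up to 4 called members of each gene list with the lowest adjusted p, and Mt2 came in by its list. Members, lists and tests were chosen with earlier results of these data known. Alternatives covered the offset, filter, threshold, normalization, probe set choice, arrays in the fit, blocks for replicate and run, and marker scores as covariates. Upstream sequences were read from RefSeq (GRCm38.p6).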

Additional observations from a re-analysis of the deposited data

Results flagged for a closer look

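The strain difference was not the same in liver and duodenum, by limma's interaction test at an adjusted p of 0.01, for 56 genes in which D2 was relatively higher in liver and 73 in which it was relatively lower. The values below are the log2 interaction of the genes named by class, each with 3 arrays in a group. The reversed genes were *Ccl9* (2.51), *Cyp2c29* (2.40), *Fuca2* (2.09), *Arsg* (1.81), *Retsat* (-1.22) and *Rarres2* (-1.03). Confined to liver and measured in both tissues were *Hspb1* (-2.87), *Psen2* (-2.27), *Fez2* (-1.58), *Tpm2* (-1.42), *Mgst3* (2.41), *Tmem51* (2.03), *Mt1* (1.89) and *Sae1* (1.82). Confined to liver and low in duodenum were *Nlrp12* (-8.23), *Nnmt* (-4.26), *Cyp2c23* (-3.89), *Tedc2* (-3.35), *Cyp2c39* (6.45), *Rassf4* (4.26) and *Hamp2* (3.28). Confined to duodenum and measured in both were *Serpina1b* (-2.78), *Cd36* (-1.78), *Ces1c* (-1.41), *Fgf1* (-1.40), *Sqor* (1.80), *Aqp9* (1.49), *Mal2* (1.44) and *Akr7a5* (1.16). Confined to duodenum and low in liver were *Clca4a* (6.45), *Tmem252* (4.04), *Ctrc* (-6.04), *Pla2g2a* (-5.57), *Ubd* (-3.49) and *Ap1s3* (-2.87). Different in the same direction by unequal amounts were *Pttg1* (-3.18), *Slc19a2* (1.41), *Prelid2* (3.13) and *Scpep1* (-1.44).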

How the results depend on the processing

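Counts are given in the order D2 relatively higher in liver (56), D2 relatively lower in liver (73), liver (624), duodenum (328), reversed (6), confined to liver and measured in both (35) or low in duodenum (11), and confined to duodenum and measured in both (20) or low in liver (7). Only those that moved by over 1.5 times are printed for an alternative. At an adjusted p of 0.05 all 9 moved, to 174, 175, 1162, 598, 18, 110, 30, 39 and 12. Without a variance trend they were 13, 7, 218, 107, 0, 3, 5, 1 and 2, and with 24 arrays and run as a fixed block, chosen after seeing the data, 8, 7, 352, 57, 0, 2, 2, 1 and 0, the cause not being tested. With log2 of signal plus 16 there were 110 and 117 genes, 58 and 48 confined to liver and 21 confined to duodenum and low in liver. A filter at a third-highest signal of 100 gave 10 reversed, 57 confined to liver and measured in both and 3 confined to duodenum and low in liver. Required to differ by 2-fold, liver held 332, duodenum 199, reversed 0 and the measured classes 18 and 10. Separate fits of the tissues left 3 reversed. The mean of all probe sets gave 32 and 46 genes, with 18 and 8 in the measured classes. With the other tissue within 2-fold 59 were confined to liver and measured in both, and with low set under 20 the low classes held 4 and 4. In the *Hfe*-/- arrays, also added after seeing the data, 21 were confined to liver and measured in both and 2 to duodenum and low in liver, and the interaction had the other sign for *Ubd* (0.26), *Cyp7b1* (0.70) and *Junb* (0.070). With 1 array left out the 9 counts were 32 to 60, 39 to 66, 416 to 621, 230 to 310, 3 to 6, 20 to 33, 6 to 10, 6 to 22 and 3 to 7. Of 56 named genes 33 kept the interaction call with any array left out.

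The deviations of same-numbered liver and duodenum samples had correlations of 0.002 to 0.064 for 6 pairs. Those of samples with different numbers ran from -0.081 to 0.060. Correlations this small cannot show whether a number marks the same mouse, and the main fit did not take the numbers as pairs. With the replicate block as a fixed mouse term 31 and 41 genes were called, 69 of these 72 among the 129, and with it as a random term (correlation 0.014) 133.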
